A study of Mus musculus with 30 samples.

Results

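Tbx2, Fam78b, Nhsl1, Pheta1, Pard6g, Arhgef26, Caln1 and Acot12 are 8 of the 55416 genes counted in bulk RNA-seq of mouse fracture calluses. They were chosen on their values at 14 days post fracture (dpf), where each was far lower in P-Apex1KO than in wild-type (WT) calluses, so their 14-dpf levels and fold changes are given below as a description without a test. The levels at 3, 6 and 10 dpf were not among those values and were tested. Earlier results of these data were known when the choice was made. The callus is the repair tissue that bridges a broken bone, first as soft cartilage and fibrous tissue and then as mineralized bone. Apex1 encodes a nuclease of base excision repair that also acts as a redox regulator of transcription factors.

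P-Apex1KO mice were Prrx1-Cre;Apex1C/C, in which Cre is active in limb bud mesenchyme and its descendants, so blood, immune, endothelial and muscle cells of the callus kept Apex1. WT mice were littermates with the genotypes Prrx1-Cre+/-;Apex1C/+, Apex1C/C or Apex1C/+, so every WT mouse carried at least 1 floxed allele and some may have carried Cre. The labels do not say which of these genotypes each WT library had. All were adult mice with a closed, non-stabilized fracture of the left tibia, and no further treatment was named for these calluses. The 30 libraries comprised 4 WT and 4 P-Apex1KO at 3 dpf, 5 and 3 at 6 dpf, 4 and 3 at 10 dpf, and 4 and 3 at 14 dpf. Both sexes were present in every group except P-Apex1KO at 14 dpf, whose 3 calluses were all female, against 1 female and 3 males in WT. Each library held 18334389 to 43111491 counted reads. The labels number the replicates but do not name the mouse behind each, so p-values measure the spread between these libraries. Levels are in CPM, reads of a gene scaled to the size of its library, after normalization over all 30 libraries. Fold changes are P-Apex1KO over WT on the log2 scale, with sex as a covariate, and a gene was called at an adjusted p under 0.05 over all genes tested.

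Apex1 itself ranged from 26.5 to 33.1 CPM in WT and 18.4 to 34.6 CPM in P-Apex1KO at 3 dpf. Its log2 fold change was -0.15 at 3 dpf (adjusted p = 0.927), -0.67 at 6 dpf (adjusted p = 0.0071), -0.65 at 10 dpf (adjusted p = 0.0278) and -0.29 at 14 dpf (adjusted p = 0.367). At 6, 10 and 14 dpf each P-Apex1KO callus was below every WT callus in Apex1 CPM. The WT and P-Apex1KO means were 23.7 and 15.5 CPM at 10 dpf and 24.0 and 16.0 CPM at 14 dpf. The smaller log2 fold change of 14 dpf comes from the fit with sex, which sets the all-female P-Apex1KO calluses against the 1 WT female. Reads from cells that kept the gene are included in these values.

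On GRCm39, the build of the counts (mm39), GENCODE M39 places all 8 genes on the plus strand. Tbx2 spans chr11:85723377-85734115, Fam78b chr1:166828565-166918878, Nhsl1 chr10:18194070-18410745 and Pheta1 chr5:121986093-121992695. Pard6g spans chr18:80090070-80165531, Arhgef26 chr3:62245765-62369842, Caln1 chr5:130398110-130876253 and Acot12 chr13:91889396-91935688. Only Pheta1 and Caln1 share a chromosome. Pard6g overlaps the antisense gene Adnp2, and Acot12 overlaps the antisense lncRNA 4833422C13Rik. Their highest counts in a library were 1886 and 856, and reads were assigned by strand. On its own strand Pard6g overlaps Gm50195, an experimental (TEC) gene model with at most 49 counts, so reads in that stretch may be shared.

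The 8 genes belong to unrelated families. Tbx2 is a T-box transcriptional repressor known from limb and heart development. Pard6g is a PAR6 scaffold of the polarity complex, Arhgef26 (SGEF) activates the small GTPase RhoG, and Nhsl1 is a relative of the Nance-Horan syndrome protein that binds the WAVE actin complex. Pheta1 binds the inositol phosphatase OCRL in endosome recycling. Caln1 is calneuron 1, a calcium sensor best known from neurons, and Acot12 is a cytosolic thioesterase that hydrolyses acetyl-CoA, best known from liver. Fam78b is a member of the FAM78 family, to which no role is assigned here.

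The promoter windows, from 250 bases before to 50 after the canonical start, were searched on both strands for short motifs fixed as letters. Among 21770 protein-coding promoters the GC box GGGCGG was found in 42.5%, and it was found in 6 of the 8 genes. The hypoxia response core ACGTG was found in 20.7% of promoters and in 3 of the 8, Tbx2, Pheta1 and Caln1. None of the 8 windows held the RUNX core TGTGGT (15.3% of all promoters), the AP-1 motif TGANTCA (7.14%), the CRE core TGACGT (8.6%), the homeodomain core TAATTA (5.51%) or the T-box site core GGTGTGA (3.87%). A match describes letters and not a bound site, and a missing match says only that the letters are not in this window. GC content ran from 62% to 79% in 7 of the 8 windows, against a median of 54.3% over all promoters, and was 36% in Arhgef26, the 1 gene with no motif found. Another annotation, RefSeq, places the starts of Arhgef26, Nhsl1 and Caln1 elsewhere. The motifs and GC content given for these genes, and the counts over the 8, thus depend on the starts used. Of the promoters with the ACGTG core, those of Tbx2 and Pheta1 are shown as the 250 bases before the start, 5′ to 3′ on the plus strand of GRCm39, with motif matches on either strand in capitals. Both Tbx2 (chr11:85723127-85723376) and Pheta1 (chr5:121986751-121987000) also hold a GC box close to the start.
Tbx2: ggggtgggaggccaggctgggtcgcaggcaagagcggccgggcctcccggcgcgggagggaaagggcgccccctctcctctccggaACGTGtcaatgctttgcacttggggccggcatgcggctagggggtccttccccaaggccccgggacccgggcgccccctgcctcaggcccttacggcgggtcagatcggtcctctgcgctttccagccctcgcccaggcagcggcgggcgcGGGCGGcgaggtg
Pheta1: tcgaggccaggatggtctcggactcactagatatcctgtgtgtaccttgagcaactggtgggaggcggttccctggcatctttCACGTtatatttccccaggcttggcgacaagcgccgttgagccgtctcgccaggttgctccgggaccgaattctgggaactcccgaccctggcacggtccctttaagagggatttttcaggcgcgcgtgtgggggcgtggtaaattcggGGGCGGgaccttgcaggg

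Tbx2 was the 1 gene of the 8 called lower at 6 dpf. At 3 dpf WT calluses had 8.85, 10.8, 7.56 and 10.4 CPM and P-Apex1KO calluses 5.49, 6.4, 10.5 and 9.47 CPM. The groups overlapped, and the log2 fold change was -0.21 (SE 0.22; adjusted p = 0.912). At 6 dpf WT calluses had 27.3, 20.8, 19.0, 29.1 and 18.2 CPM, and P-Apex1KO calluses 15.7, 12.8 and 8.3 CPM. Every P-Apex1KO callus was now below every WT callus, and Tbx2 was called lower at -0.86 (SE 0.23; adjusted p = 0.0450). That call was lost on leaving out WT replicate 1, 2, 3 or 4, or P-Apex1KO replicate 2 or 3, with adjusted p between 0.0386 and 0.131 over the 8 calluses left out in turn, and also with library size alone (-0.69, adjusted p = 0.0583) or without a filter (adjusted p = 0.112). At 10 dpf the values were 45.2, 53.9, 32.3 and 47.9 CPM in WT against 23, 21.3 and 19.8 CPM in P-Apex1KO. The groups did not overlap, with a log2 fold change of -1.01 (SE 0.14; adjusted p = 0.0130). At 14 dpf WT reached 83.6, 75.8, 64.7 and 73.4 CPM, while the 3 P-Apex1KO calluses lay close together at 13.7, 13.5 and 13.4 CPM, a log2 fold change of -2.60 (SE 0.12). P-Apex1KO calluses thus held 47.7% of the WT mean at 10 dpf and 18.2% at 14 dpf.

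**Figure D1:**
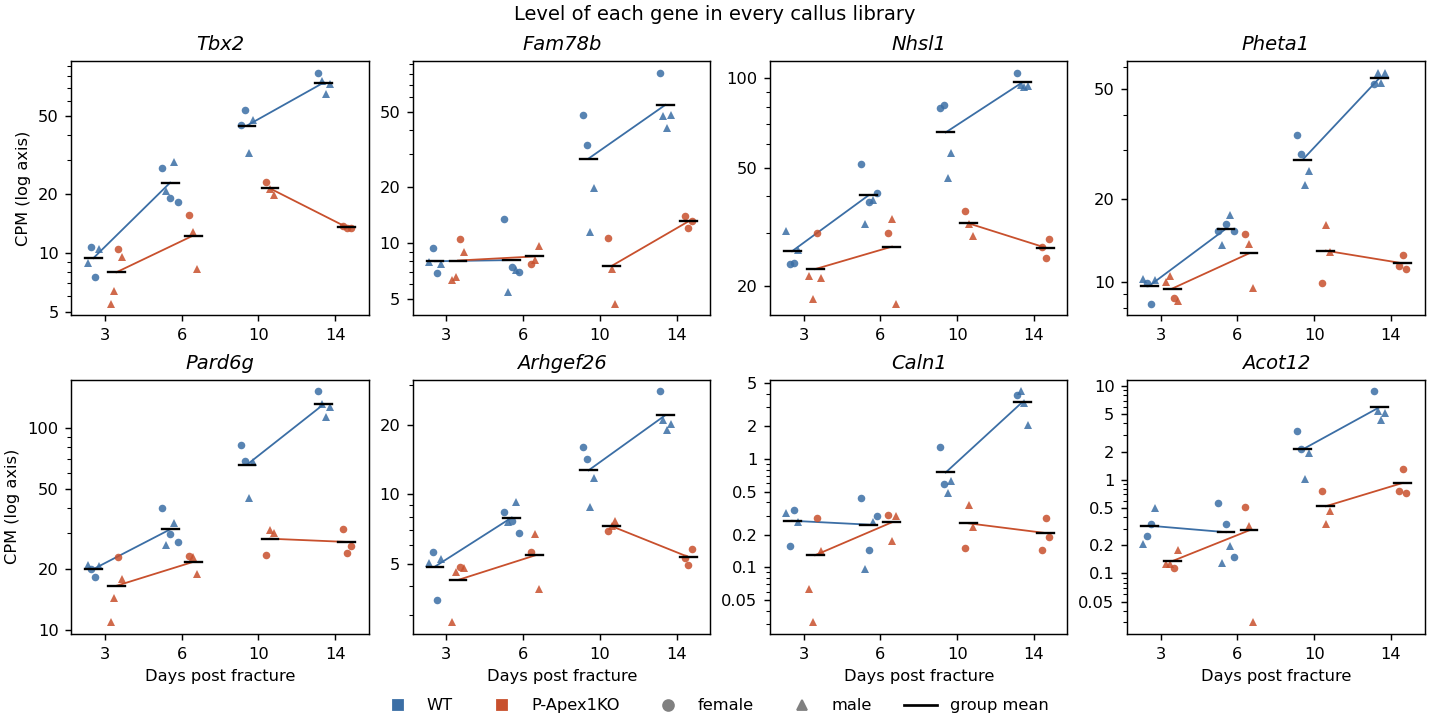
Level of each gene (CPM, log axis) in every library at 3, 6, 10 and 14 dpf, on an evenly spaced axis of days; circles are female and triangles male calluses, black bars are group means, and lines join the means within 3 to 6 dpf and within 10 to 14 dpf. At 10 and at 14 dpf all P-Apex1KO points (red) lie below all WT points (blue) in each of the 8 genes, while at 3 dpf this holds for Acot12 alone.

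Pard6g had the highest level of the 8 genes per kilobase of exon, at 22.3 ± 2.69 CPM per kb (SD, n = 4) in WT at 14 dpf. At 3 dpf its range was 18.3 to 20.9 CPM in WT and 10.9 to 22.9 CPM in P-Apex1KO, and at 6 dpf it was 26.3 to 40.0 and 18.9 to 23.2 CPM. The groups separated at 6 dpf, yet the log2 fold change of -0.48 (SE 0.15) missed the threshold (adjusted p = 0.0776). At 10 dpf WT calluses had 81.6, 68.3, 44.9 and 67.7 CPM and P-Apex1KO calluses 23.5, 31.2 and 30.1 CPM, a call of -1.17 (SE 0.21; adjusted p = 0.0273) that was lost without a filter on low counts (adjusted p = 0.0756). By 14 dpf WT calluses had 151, 131, 113 and 127 CPM and P-Apex1KO calluses 31.7, 24.0 and 26.0 CPM. The groups were far apart on both days, with a P-Apex1KO mean at 43.1% of WT at 10 dpf and 20.9% at 14 dpf.

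Arhgef26 was less abundant and its 10-dpf difference fell just short of the threshold. WT and P-Apex1KO ranges were 3.46 to 5.64 and 2.78 to 4.84 CPM at 3 dpf, and 6.82 to 9.24 and 3.88 to 6.76 CPM at 6 dpf, where the log2 fold change was -0.54 (SE 0.20; adjusted p = 0.121). At 10 dpf WT calluses had 16.0, 14.2, 8.85 and 11.8 CPM and P-Apex1KO calluses 6.92, 7.27 and 7.64 CPM. The groups did not overlap, at -0.72 (SE 0.18; adjusted p = 0.0507). It was called under 4 of 8 alternatives with all calluses, among them the DESeq2 Wald test (adjusted p = 0.00571), and with 1 of 7 calluses left out, WT replicate 3. At 14 dpf WT calluses held 28.1, 21.1, 19.1 and 20.2 CPM against 5.27, 4.95 and 5.8 CPM in P-Apex1KO, which was 24.2% of the WT mean.

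Nhsl1 had the smallest fall of the 8 at 14 dpf and the lowest adjusted p of the 8 at 10 dpf. Its ranges at 3 dpf were 23.7 to 30.7 CPM in WT and 18 to 30.2 CPM in P-Apex1KO, and at 6 dpf 32.3 to 51.5 and 17.4 to 33.7 CPM. The 6-dpf groups overlapped, with a log2 fold change of -0.47 (SE 0.21; adjusted p = 0.179). At 10 dpf WT calluses had 79.1, 81.1, 46.3 and 56.2 CPM and P-Apex1KO calluses 35.6, 32.2 and 29.5 CPM, a call of -0.89 (SE 0.12; adjusted p = 0.0101). WT values at 14 dpf were 104.4, 95.2, 93.8 and 94.3 CPM, and P-Apex1KO values were 26.9, 24.8 and 28.8 CPM. The P-Apex1KO mean stood at 27.7% of WT.

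Pheta1 was not called before 10 dpf. WT and P-Apex1KO ranges were 8.32 to 10.3 and 8.52 to 10.5 CPM at 3 dpf, and 13.6 to 17.5 and 9.48 to 14.8 CPM at 6 dpf, with overlap on both days and log2 fold changes of -0.07 and -0.24 (adjusted p = 0.946 and 0.360). At 10 dpf WT calluses had 34.0, 29.0, 22.4 and 25.3 CPM and P-Apex1KO calluses 9.9, 16.1 and 12.8 CPM, a call of -1.06 (SE 0.21; adjusted p = 0.0294). At 14 dpf WT had 52.1, 57.0, 52.5 and 57.1 CPM and P-Apex1KO 11.4, 12.5 and 11.1 CPM. Both groups were tight, and the P-Apex1KO mean was 21.3% of WT.

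Fam78b had overlapping groups at 3 and 6 dpf and separate ones at 10 dpf. The WT mean at 6 dpf was 8.1 ± 3.06 CPM (SD, n = 5). P-Apex1KO calluses averaged 8.47 ± 0.983 CPM (SD, n = 3), with a log2 fold change of 0.20 (SE 0.27; adjusted p = 0.707). At 10 dpf WT calluses spread widely, at 48.6, 33.4, 11.4 and 19.6 CPM, against 10.6, 7.27 and 4.73 CPM in P-Apex1KO. The lowest WT callus was 11.4 CPM and the highest P-Apex1KO callus 10.6 CPM, and the call was -1.59 (SE 0.28; adjusted p = 0.0265). It missed the threshold without a sex term (adjusted p = 0.0714) and without a filter (adjusted p = 0.0707). The 14-dpf values were 81.3, 47.9, 41.0 and 48.5 CPM in WT and 14.0, 12 and 13.1 CPM in P-Apex1KO, or 23.9% of the WT mean.

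Caln1 and Acot12 had few reads before 14 dpf, so their early values are imprecise. Caln1 had 1 to 14 counts per library at 3 and 6 dpf. At 10 dpf it had 24, 13, 11 and 14 counts in WT and 3, 9 and 5 in P-Apex1KO, and the log2 fold change of -1.40 (SE 0.53) missed the threshold (adjusted p = 0.150). At 14 dpf the WT calluses had 80, 91, 66 and 47 counts and the P-Apex1KO calluses 4, 6 and 4. In CPM these were 3.89, 4.22, 3.27 and 2.05 against 0.144, 0.289 and 0.19, so that P-Apex1KO held 6.19% of the WT mean, the lowest share of the 8 genes.

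Acot12 was lower in every P-Apex1KO callus at 3 dpf, with 4 or 5 counts per library against 8 to 17 in WT. The log2 fold change of -1.29 (SE 0.48) did not pass the threshold (adjusted p = 0.768), and at 6 dpf the estimate was 0.35 (SE 0.68; adjusted p = 0.805). At 10 dpf WT calluses had 3.35, 2.15, 1.02 and 1.93 CPM and P-Apex1KO calluses 0.758, 0.338 and 0.469 CPM, a call of -1.84 (SE 0.35; adjusted p = 0.0245) and the largest fold of the 8 at that day. At 14 dpf WT had 8.81, 5.48, 4.36 and 5.16 CPM and P-Apex1KO 0.759, 1.3 and 0.713 CPM, 15.5% of the WT mean. Neither Caln1 nor Acot12 was at 0 in any library, so none of the 8 genes was lost in the sense of going undetected.

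Counted together, 0 of the 8 genes were called at 3 dpf, when 0% of 19866 genes were. By unadjusted p under 0.05 it was 1, Acot12, against 6.12% of genes, and by DESeq2 0. Acot12 was also the 1 gene of the 8 whose 3-dpf groups did not overlap (1.7% of genes lay below WT in this way). At 6 dpf 1 of 8 was called lower, against 5.61% of 20260 genes called lower. By unadjusted p it was 4 against 26.2%, and 3 lay below WT without overlap against 11.9%. At 6 dpf the count of calls was thus close to what the background gives. At 10 dpf 6 of 8 were called lower, against 3.44% of 18910 genes, and 8 of 8 lay below WT without overlap, against 10.5%. Since earlier results of these data were known at the choice, these counts may not be fully independent of it. The median log2 fold change of the 8 went from -0.20 at 3 dpf to -0.36 at 6 dpf and -1.12 at 10 dpf, beside medians over all genes tested of -0.0028, 0.013 and -0.0031.

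**Figure D2:**
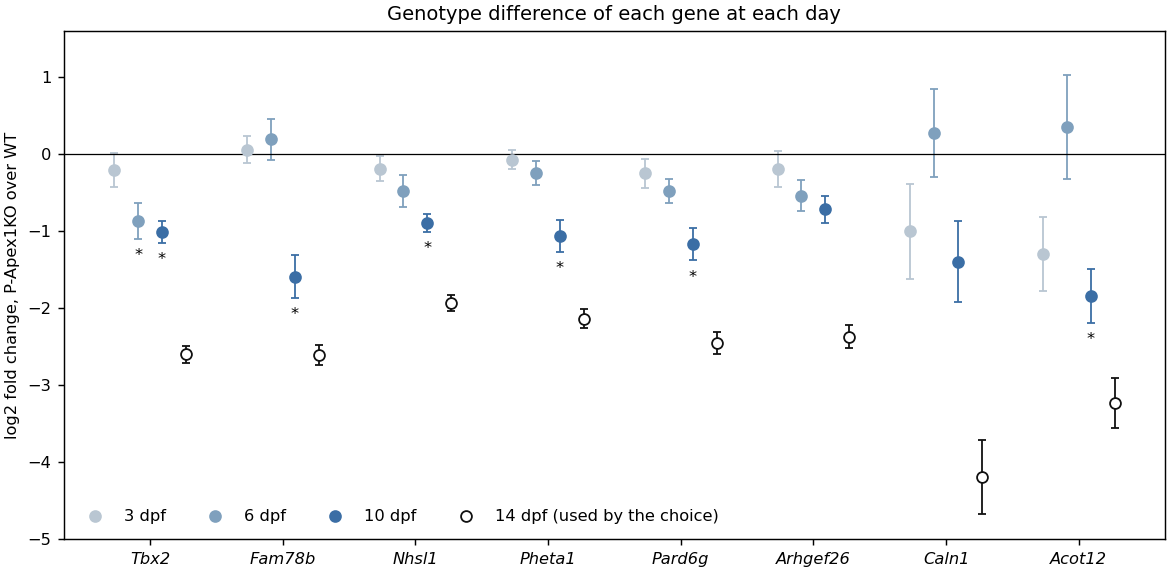
Log2 fold change of each gene, P-Apex1KO over WT, at 3, 6, 10 and 14 dpf, with bars of 1 SE from the edgeR fit; asterisks mark an adjusted p under 0.05 and open circles are the 14-dpf values, which chose the genes and were not tested. The points of 10 dpf run from -1.84 to -0.72 and those of 14 dpf from -4.20 to -1.93.

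The 10-dpf count rested on few calluses. It was 0 of 8 without P-Apex1KO replicate 1, which is the 1 female of that group, and 42 genes of the whole table were then called. The count was 1 without WT replicate 1, 2 without WT replicate 2 and 2 without P-Apex1KO replicate 3, and 5 to 7 without each other callus. Across these fits all 8 log2 fold changes kept a negative sign, from -2.03 to -0.48. The DESeq2 Wald test called 7 of 8 at 10 dpf, the 6 and Arhgef26.

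At 14 dpf, where the genes were chosen, the log2 fold changes were -2.60 for Tbx2, -2.61 for Fam78b, -1.93 for Nhsl1 and -2.13 for Pheta1. They were -2.45 for Pard6g, -2.37 for Arhgef26, -4.20 for Caln1 and -3.23 for Acot12. A log2 fold change below -1 was found in 6.03% of 20228 genes, and 23.4% of genes lay below WT without overlap, as all 8 did. Counted from the lowest fold change of all genes, Caln1 was number 5 and Acot12 number 16, while Nhsl1 was number 244. Since no male P-Apex1KO callus was sequenced at 14 dpf, a fit with sex sets the P-Apex1KO calluses against the 1 WT female. That female was the highest of the 4 WT calluses in 6 of the 8 genes, as in 31% of all genes tested, Pheta1 and Caln1 being the others. Without a sex term the values ran from -3.97 for Caln1 to -1.81 for Nhsl1. Set against the WT female alone the P-Apex1KO means were 5.34% to 25.7% of its level, and against the WT males 6.53% to 28.5%.

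Per kilobase of exon, the order of levels in WT at 14 dpf was Pard6g, Tbx2, Pheta1, Fam78b, Nhsl1, Arhgef26, Acot12 and Caln1. After Pard6g came Tbx2 at 14.5 ± 1.51 and Pheta1 at 10.1 ± 0.51 CPM per kb (SD, n = 4). Fam78b, at 7.96 ± 2.63 CPM per kb, had a spread that reached both of its neighbours in this order, Pheta1 and Nhsl1 (6.37 ± 0.33 CPM per kb). Caln1 was lowest, at 0.204 ± 0.058 CPM per kb. The order of the means was the same in P-Apex1KO, from 4.65 CPM per kb for Pard6g to 0.0126 for Caln1.

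Female WT calluses were also often the higher ones at 10 dpf. In 6 of the 8 genes, all but Tbx2 and Caln1, both WT females were above both WT males, and 26.6% of all genes tested showed this order. Fam78b had a mean of 41.0 CPM in WT females and 15.5 CPM in WT males. The P-Apex1KO female held 16.0% to 46.4% of the WT female mean over the 8 genes, and the P-Apex1KO males 27.3% to 72.0% of the WT male mean. With 1 female and 2 males in P-Apex1KO, the difference between these shares was not tested.

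From 3 to 6 dpf 5 of 8 were called higher in WT, against 15.4% of 20468 genes. Tbx2 rose most, by 1.24 on the log2 scale (SE 0.22; adjusted p = 0.000709). It was followed by Arhgef26 at 0.68 (adjusted p = 0.0178), Pheta1 at 0.65 (adjusted p = 0.00118), Pard6g at 0.59 (adjusted p = 0.0133) and Nhsl1 at 0.56 (adjusted p = 0.0301). The other 3 were not called, with -0.06 for Fam78b, -0.29 for Caln1 and -0.37 for Acot12. The count was 2 without WT replicate 3 of 3 dpf. In P-Apex1KO 0 of 8 were called from 3 to 6 dpf, against 7.1% of genes called higher. By unadjusted p under 0.05 it was 2, Tbx2 at 0.61 and Pheta1 at 0.43, against 28.4%, and the DESeq2 Wald test called 1. The difference between the genotypes in this change was not called for any of the 8, against 1.3% of genes, with a smallest adjusted p of 0.486. None had an unadjusted p under 0.05 and DESeq2 called 0. A rise in 1 genotype and not in the other is therefore not shown to differ between them.

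From 10 to 14 dpf, which includes the calluses of the choice and is a description, all 8 genes rose in WT, by 0.67 for Nhsl1 up to 2.24 for Caln1 on the log2 scale. In P-Apex1KO the same estimates ran from -0.82 for Tbx2 to 0.30 for Acot12, with 6 of 8 below 0. They are adjusted for sex, and P-Apex1KO had 1 female and 2 males at 10 dpf but only females at 14 dpf. Unadjusted mean CPM of Fam78b in P-Apex1KO was 7.54 at 10 dpf and 13.0 at 14 dpf, beside an estimate of 0.13. For Acot12 the means were 0.522 and 0.924 CPM, and for the other 6 genes the mean was lower at 14 dpf. WT levels were thus higher at 14 than at 10 dpf for each of the 8 genes, and P-Apex1KO levels were lower for some and higher for others. Levels at 6 and 10 dpf stand side by side and were not compared, since the sample names change form between them and a separate library batch cannot be told apart from the day.

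At 6 dpf, when 1 of the 8 genes was called, 12 of 14 osteoblast markers were called lower, with a median log2 fold change of -1.14, and 16 of 16 cartilage markers, with a median of -2.71. Osteoclast markers were not among them, with 0 of 9 called and a median of 0.15, and 8 of 10 muscle and 5 of 6 macrophage markers were called higher. At 10 dpf 9 of 14 osteoblast markers were called lower, with a median log2 fold change of -0.90, and 5 of 9 osteoclast markers, with a median of -1.70. Their summed levels were 75953 to 101589 CPM in WT and 35377 to 52092 CPM in P-Apex1KO for osteoblasts, and 3521 to 8058 and 1365 to 2210 CPM for osteoclasts. Of 16 cartilage markers 1 was called lower and 0 higher, with a median of -0.09. Summed hypertrophic chondrocyte levels at 10 dpf were 13995 to 17458 CPM in WT and 8268 to 12128 CPM in P-Apex1KO. Summed endothelial levels were 713 to 823 CPM in WT and 548 to 668 CPM in P-Apex1KO, and osteocyte levels 398 to 999 and 224 to 330 CPM. Summed adipocyte levels went the other way, at 47.8 to 61.9 and 88.1 to 141 CPM. Of 6 macrophage markers 4 were called higher and of 5 adipocyte markers 4, with medians of 0.76 and 1.62, beside 3.01% of all genes. Of 10 muscle markers 0 were called, and all 10 lay above 0 with a median of 1.46. At 14 dpf 9 of 14 osteoblast, 4 of 4 osteocyte and 9 of 9 osteoclast markers were called lower, against 7.04% of genes, with medians of -2.08, -1.65 and -2.41. Of 16 cartilage markers 14 were called higher and 2 lower at that day, against 4.28% of genes called higher. Yet summed cartilage levels overlapped at 14 dpf, at 4839 to 9900 CPM in WT and 6574 to 7689 CPM in P-Apex1KO. Summed osteoblast, osteocyte and osteoclast levels were lower in every P-Apex1KO callus than in every WT callus. Summed endothelial levels were lower too, at 551 to 648 CPM in P-Apex1KO and 845 to 926 CPM in WT. Summed erythroid, B lineage, nerve and Schwann cell, and tendon levels were higher in every P-Apex1KO callus than in every WT callus. All marker calls of 14 dpf come from the fit with sex, which sets the all-female P-Apex1KO calluses against the 1 WT female. No osteoblast or osteoclast marker was at 0 in all libraries of any group. In a whole callus, fewer cells of a type and less RNA per cell cannot be told apart, and the part of these cell types in the 8 genes' values was not tested.

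Before 14 dpf the 8 genes followed these markers in different degrees. Over the 23 libraries of 3, 6 and 10 dpf, Pearson's r of log2 CPM with the mean osteoblast marker was 0.97 for Tbx2, 0.94 for Arhgef26 and 0.93 for Pard6g, and 0.60 for Fam78b. With the mean osteoclast marker r lay between 0.82 and 0.91 for all 8, being highest for Acot12. Caln1 had 1 to 24 counts and Acot12 1 to 62 counts in these libraries, so their r rests on few reads, mostly near the pseudocount. For Fam78b, Pheta1, Caln1 and Acot12 r with osteoclast markers was above that with osteoblast markers, and for Tbx2, Nhsl1, Pard6g and Arhgef26 it was below. Other lists also ran with some of the genes. For Tbx2 r was 0.90 with hypertrophic chondrocyte markers and 0.83 with cartilage markers, and r was over 0.8 for 4 genes with endothelial and for 3 with osteocyte markers. With macrophage markers r was negative throughout, from -0.91 for Tbx2 to -0.51 for Fam78b. Among the 28 pairs of the 8 genes themselves r ran from 0.64, for Tbx2 and Fam78b, to 0.96, for Tbx2 and Arhgef26. These libraries differ in day, genotype and depth, and span the change of sample names between 6 and 10 dpf, where a batch cannot be told apart. The correlations therefore describe common change over the groups and carry no test.

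**Figure D3:**
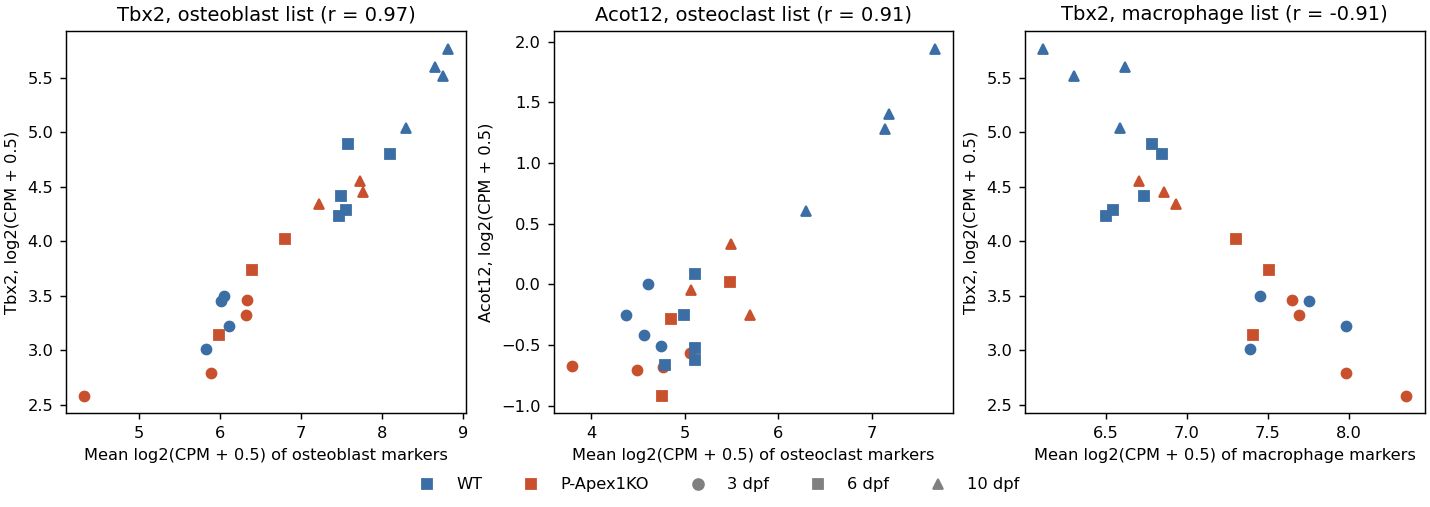
Each point is 1 of the 23 libraries of 3, 6 and 10 dpf; the axes are log2(CPM + 0.5) of Tbx2 or Acot12 and the mean log2(CPM + 0.5) of a marker list. Tbx2 rises with the osteoblast list (r = 0.97) and falls with the macrophage list (r = -0.91), and Acot12 rises with the osteoclast list (r = 0.91) with the 4 WT libraries of 10 dpf highest on both axes.

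The 3 protein-coding genes most like each of the 8, among 13795 with a mean of at least 1 CPM, were found over the same 23 libraries. The same limits of day, depth and possible batch hold for them, as does that of few reads for Caln1 and Acot12. For Tbx2 they were Bcan, Ano1 and Tmtc2 (r = 0.98, 0.98 and 0.98), a proteoglycan best known from brain, a chloride channel and a mannosyltransferase. Bcan had nearly the fold changes of Tbx2, at -0.99 at 6 dpf (adjusted p = 0.0374) and -0.95 at 10 dpf (adjusted p = 0.0227). For Arhgef26 they were Tbx2, Tanc1 and Cdc42ep1, for Nhsl1 Sh3rf1, Vstm4 and Cdh2 (N-cadherin), and for Pard6g Cdh2, Spns2 and Smad9, a SMAD of the BMP pathway. Pheta1 was nearest to Spns2, Slc4a2 and Sstr2. Fam78b was nearest to Elmo1 and Prex1, both regulators of Rac, and Fyn, a Src-family kinase, at r from 0.90 to 0.92. Caln1 was nearest to Fyn, Kcnmb4 and Pard6g, at r from 0.84 to 0.90, and Lifr and Mob3b were among the 3 nearest to Acot12, at r of 0.94 and 0.93. Elmo1, the nearest to Fam78b, was -0.36 at 10 dpf (adjusted p = 0.0619), a smaller difference than the -1.59 of Fam78b.

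Genes next to the 8 on the chromosome were not called with them at 10 dpf. For each, the nearest protein-coding gene tested on either side was taken, 16 in all. At 10 dpf 0 of 16 were called in either direction by edgeR and 0 by DESeq2. Of all genes edgeR called 3.44% lower and 3.01% higher, so 0 of 16 is close to what the background gives. An unadjusted p under 0.05 was found in 6 of the 16, so the lack of calls does not show that the neighbours were unchanged. The share of all genes at this p is not given, and the 6 are not read as more or fewer than it. Their log2 fold changes at 10 dpf lay between -0.46 and 0.41, all above the -0.72 of Arhgef26. Tbx4, the T-box gene that follows Tbx2 and is known for hindlimb development, had -0.04 at 6 dpf, -0.01 at 10 dpf and 0.14 at 14 dpf. At 6 dpf 1 neighbour was called, Rap2b before Arhgef26, and it was higher at 0.46 (adjusted p = 0.00948), beside 5.31% of all genes. At 14 dpf 1 was called, Pogk before Fam78b, at -0.48 (adjusted p = 0.0475), beside 7.04% of all genes called lower. The antisense neighbour Adnp2, which overlaps Pard6g, was at -0.06 at 10 dpf (adjusted p = 0.679) while Pard6g was at -1.17.

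**Figure D4:**
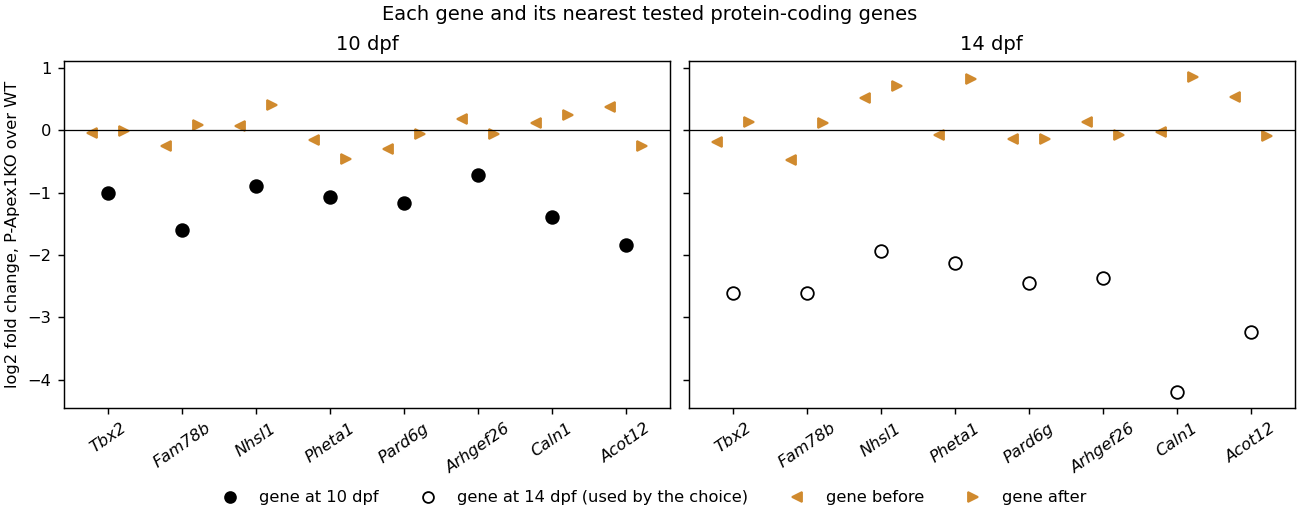
Log2 fold change, P-Apex1KO over WT, of each gene (circle) and of the nearest tested protein-coding gene before and after it (triangles) at 10 and 14 dpf; open circles are values that chose the genes. The triangles lie between -0.46 and 0.41 at 10 dpf and between -0.48 and 0.86 at 14 dpf. They are above the circle of their gene in each case, an order that the choice of the genes nearly fixed at 14 dpf.

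The other members of these genes' families and pathways, came to 100 genes in 8 lists. None of the 86 tested was called at 3 dpf, as was none of all genes. At 6 dpf 8 of 86 were called lower and 2 higher, against 5.61% and 5.31% of all genes, and at 10 dpf 5 of 83 were called lower and 0 higher, against 3.44% and 3.01%. Among 10 T-box genes tested beside Tbx2 at 10 dpf 0 were called, with a median of 0.02. At 6 dpf Eomes, a T-box factor of early embryo and lymphocytes, was called higher at 1.17 (adjusted p = 0.0348), opposite in direction to Tbx2.

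In the polarity list of Pard6g, Pard3, its partner scaffold, was called lower at 10 dpf at -0.55 (adjusted p = 0.0145), 1 of 16 tested. At 6 dpf Prkcz, the atypical protein kinase C of the same complex, was lower at -1.08 (adjusted p = 0.0297) and Patj of the Crumbs complex at -0.55 (adjusted p = 0.0408), 2 of 17. In the list of Nhsl1, its relative Nhsl3 was called lower at 10 dpf at -1.51 (adjusted p = 0.0142), more than Nhsl1 itself, and none of the 14 others tested was called. At 6 dpf Abi2, a WAVE complex subunit, was lower at -0.46 (adjusted p = 0.0406).

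In the list of Arhgef26 and RhoG, 3 of 12 were lower at 10 dpf. They were the exchange factor Arhgef15 at -0.58 (adjusted p = 0.0204), the Rac activator Dock1 at -0.40 (adjusted p = 0.0310) and Dock4 at -0.39 (adjusted p = 0.0268), which lies outside the rule for named genes and is given because it completes the count. Other members were lower at 6 dpf, the exchange factors Ngef at -1.12 (adjusted p = 0.0194) and Arhgef19 at -0.94 (adjusted p = 0.0186). In the endosome list of Pheta1 0 of 10 were called at 10 dpf, and at 6 dpf Igf2r, the cation-independent mannose 6-phosphate receptor, was lower at -0.57 (adjusted p = 0.0333). Of the thioesterases and acetyl-CoA enzymes beside Acot12, 0 of 13 were called at 10 dpf, where their median was 0.16. At 6 dpf Acot1 was lower at -0.87 (adjusted p = 0.0425) and Acot11 at -0.66 (adjusted p = 0.0275). Of the calcium sensors related to Caln1 0 of 6 were called at 10 dpf, and at 6 dpf Cabp4 was higher at 1.91 (adjusted p = 0.0310) with a mean of 0.296 CPM, named after its value was seen. Fam78a, the other FAM78 gene, was not called on any of the days tested.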

How the data were processed

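Total RNA of 30 fracture calluses, depleted of ribosomal and beta-globin RNA, was sequenced as stranded paired-end libraries. The authors aligned reads to mm39 with STAR 2.7.0d and counted uniquely mapped, reverse-strand reads per Ensembl v104 gene with featureCounts, and the deposited values are raw counts for 55416 genes. Symbols came from GENCODE M39, which named 54749 of them, and 2 list genes were not matched. No duplicate library was found.

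Each day was fitted apart with edgeR 4.0.16 in R 4.3.3 (TMM, filterByExpr, robust quasi-likelihood F test, two-sided, sex as covariate), with Benjamini-Hochberg adjustment over all genes tested and a threshold of 0.05. The change from 3 to 6 dpf was fitted over both days with an interaction term. Levels are CPM after TMM over all 30 libraries, with a pseudocount of 0.5 on the log2 scale. The scripts were tested on simulated data. The 8 genes, the gene lists and the motifs were chosen with earlier results of these data known. Named genes were the 8, Apex1, the nearest tested coding gene on either side, the 3 most correlated coding genes, and at most 2 genes per pathway list, direction and day at 6 and 10 dpf with a mean of at least 1 CPM. A correlated gene and a promoter sequence are not reported here. Alternatives were DESeq2 1.42.0, its size factors, library size alone, other filters, no sex term, 1 model over all libraries, a replicate block and leaving out each callus.

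Replicate numbers come from the labels, which do not say that they mark a litter or day. At 3 dpf the deviations of same-numbered calluses from their group means had correlations of 0.479, 0.116, 0.173 and 0.132. Calluses of different number were not compared, so a pairing at 3 dpf is possible but not shown. The fit reported for 3 dpf used sex and no pairing. With the block in place of sex 0 of the 8 genes and 1 gene in all were called at 3 dpf.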

Additional observations from a re-analysis of the deposited data

Results flagged for a closer look

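Of 40 sets of 4 or 5 libraries examined, 1 for each gene and group, 3 held a callus far from the others by Dixon's criterion, and chance alone gives about 2, or 1 in 20. Fam78b was at 13.4 CPM in WT replicate 1 at 6 dpf, and the next highest WT callus of that day was at 7.42 CPM. Without it the log2 fold change of Fam78b at 6 dpf was 0.36 (adjusted p = 0.208), in place of 0.20. Nhsl1 was at 104.4 CPM in WT replicate 1 at 14 dpf, the 1 WT female of that day, with the next at 95.2 CPM. Arhgef26 was at 2.78 CPM in P-Apex1KO replicate 1 at 3 dpf, with the next lowest at 4.59 CPM. Without it the log2 fold change at 3 dpf was -0.05 (adjusted p = 0.935), in place of -0.19.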

How the results depend on the processing

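Over all genes, 0 were called at 3 dpf, 2212 at 6 dpf, 1221 at 10 dpf and 2289 at 14 dpf. At 3 dpf the count was 38 with 1 model over all libraries, 85 with DESeq2, 4 without a filter and 1 with the replicate block, and 0 to 10 with 1 callus left out. At 6 dpf it was 3594 with library size alone and 677 with the replicate block, and 890 to 2359 with 1 callus left out. At 10 dpf it was 2187 with DESeq2 and 750 without a sex term, and 42 to 1827 with 1 callus left out. At 14 dpf it was 6188 with 1 model over all libraries and 6849 without a sex term, and 1206 to 3773 with 1 callus left out. WT replicate 1 of 14 dpf could not be left out, since no WT female then remains. Library size alone moved the all-gene median, on the log2 scale, to 0.20 at 6 dpf, 0.08 at 10 dpf and 0.31 at 14 dpf. The split of lower to higher calls became 814 to 2780 at 6 dpf (1137 to 1075 as reported), 464 to 849 at 10 dpf (651 to 570) and 766 to 1878 at 14 dpf (1424 to 865), and was 3382 to 3467 at 14 dpf without a sex term.

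Of the 8 genes, 1 was called lower at 6 dpf, and 2 with 1 model over all libraries, with DESeq2 or without a sex term, 0 with library size alone, and 0 to 1 with 1 callus left out. At 10 dpf 6 were called lower, 5 to 7 over the alternatives with all calluses and 0 to 7 with 1 left out. From 3 to 6 dpf 5 rose in WT, 2 with library size alone and 2 to 5 with 1 callus left out. In P-Apex1KO 0 were called, 1 with DESeq2 or with at least 10 counts in every sample, and 0 to 1 with 1 left out. Acot12 at 6 dpf turned to -0.39 with the replicate block, and ranged from -0.14 to 0.73 with 1 callus left out. Fam78b at 3 dpf turned to -0.016 with the block, and ranged from -0.10 to 0.13 with 1 left out. At 6 to 14 dpf the correlations of same-numbered calluses ran from -0.330 to 0.242, so a shared number is not shown to pair calluses there either. A log2 fold change below -1 at 14 dpf was kept by 8 genes, or by 7 with at least 10 counts in every sample, where Caln1 was filtered out. Depth limits Caln1 and Acot12 before 14 dpf. The cause of these changes was not tested.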
